A study of Homo sapiens with 6 samples.

Results

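The enzymes described here carry acetyl-CoA through mevalonate to squalene, the shared first stretch of cholesterol and isoprenoid synthesis. They were chosen by gene symbol, as 9 named enzymes (ACAT2, HMGCS1, MVK, PMVK, MVD, IDI1, FDPS, FDFT1 and GGPS1), and 8 of them had a probe set with that symbol, 1 each, among 17687 named genes. FDFT1, the squalene synthase, was not analysed here. Their expression was measured in T24, a widely used and established line of human bladder cancer cells, on single-colour oligonucleotide arrays. In 1 group, cells received oxidized low-density lipoprotein (ox-LDL), a cholesterol-carrying plasma particle with oxidized lipids and protein, at 20 µg/mL for 24 h, and in the other they received vehicle for 24 h. All cells had first been kept in medium without serum for 12 h, and the medium before that held 10% serum. Each group had 3 arrays. No label states whether these came from separate cultures, and the spread behind every p-value may therefore be technical.

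The pathway joins acetyl-CoA units into HMG-CoA, reduces this to mevalonate, phosphorylates and decarboxylates mevalonate to the isoprene unit isopentenyl diphosphate, and links such units into farnesyl diphosphate. Farnesyl diphosphate is the branch point: it goes to squalene and sterols, or is lengthened to geranylgeranyl diphosphate for protein prenylation. Transcription of many of these enzymes is driven by SREBP2, a membrane-bound transcription factor that is released when sterols in the endoplasmic reticulum are low and retained there when sterols are plentiful.

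The values are log2 expression values made by the authors with RMA (robust multi-array average), and a difference is the mean of the ox-LDL arrays minus the mean of the vehicle arrays. A gene passed when its limma p-value, with Benjamini-Hochberg adjustment across 21448 probe sets, was under 0.05. The third vehicle array stood apart, with correlations across probe sets of 0.979 to 0.988 with the other arrays, against 0.992 to 0.997 among the other 5, so counts are also given without it. A description label that names siRNA against G9a conflicts with the titles, which were followed; EHMT2, which encodes G9a, averaged 8.22 ± 0.14 with ox-LDL and 7.85 ± 0.19 in vehicle (SD, n = 3 each; limma adjusted p = 0.125). The epithelial keratins KRT7, KRT8 and KRT18 had mean log2 values of 12.25, 12.20 and 11.91 with ox-LDL and 11.97, 12.10 and 11.89 in vehicle. The other epithelial markers were dimmer: KRT19 averaged 7.78 with ox-LDL and 7.67 in vehicle, UPK2 6.41 and 6.61, UPK1A 5.79 and 5.98, and EPCAM 5.61 and 5.48. UPK1B and UPK3A were in both groups no higher than a log2 value of 5.21, which 95% of the negative control values do not exceed. Of the 4 leukocyte markers PTPRC was also below that level, while CD14, CD68 and CSF1R averaged 7.19, 7.94 and 7.19 with ox-LDL and 7.54, 8.07 and 7.31 in vehicle. None of the 19 epithelial, leukocyte, fibroblast and endothelial markers passed in limma, with 4 of them at an unadjusted p under 0.05.

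With ox-LDL, 6 of the 8 measured enzymes fell: ACAT2, HMGCS1, MVK, MVD, IDI1 and FDPS. They lie between the entry to the pathway and its branch point at farnesyl diphosphate. The falls ran from 1.41-fold for ACAT2 to 2.58-fold for HMGCS1. In RNA of whole cultures, fewer cells that express a gene and less of its RNA per cell cannot be told apart. PMVK, the kinase in the middle of the pathway, had a positive difference and GGPS1, at the branch to geranylgeranyl diphosphate, a small negative one, and neither passed. Over all probe sets 6.77% passed, 3.29% with a fall and 3.48% with a rise. The study's design text selects genes by a p of no more than 0.001 together with a change of 1.5-fold or more. Applied here to the unadjusted limma p, that selection took 2 of the 8 as lower (HMGCS1 and FDPS), against 1.31% of all probe sets. The median log2 difference of the 8 enzymes was -0.56, against -0.03 over all probe sets tested.

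Promoters are printed for the enzyme with the greatest fall (HMGCS1), for 3 others that fell (MVK, MVD and FDPS) and for PMVK, which did not. Each is the 250 bases before the first start that RefSeq lists, 5′ to 3′ in the direction of the gene, on GRCh38.p14: HMGCS1 at chr5:43313413-43313662 on the minus strand, MVK at chr12:109573544-109573793 on the plus strand, PMVK at chr1:154936720-154936969 on the minus strand, MVD at chr16:88663092-88663341 on the minus strand, FDPS at chr1:155308616-155308865 on the plus strand. Capitals mark CCAAT, the letters bound by NF-Y, on either strand (read as ATTGG on the other strand), and in MVK also TCACCCCA, the shorter form of the sterol regulatory element. Of the enzymes that fell, ACAT2 had no promoter window and IDI1 is not printed. No CCAAT stood before the first start of IDI1, so the printed set is a selection.
HMGCS1: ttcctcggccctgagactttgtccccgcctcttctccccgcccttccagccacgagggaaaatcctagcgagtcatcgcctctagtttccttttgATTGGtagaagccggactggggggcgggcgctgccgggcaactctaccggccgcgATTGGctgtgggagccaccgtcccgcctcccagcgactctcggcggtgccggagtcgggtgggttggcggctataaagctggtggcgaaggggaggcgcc
MVK: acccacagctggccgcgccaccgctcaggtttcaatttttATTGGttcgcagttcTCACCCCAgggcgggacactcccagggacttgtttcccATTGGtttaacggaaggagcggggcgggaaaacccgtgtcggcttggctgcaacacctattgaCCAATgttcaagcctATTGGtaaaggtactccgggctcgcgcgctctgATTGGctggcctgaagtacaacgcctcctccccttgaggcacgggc
PMVK: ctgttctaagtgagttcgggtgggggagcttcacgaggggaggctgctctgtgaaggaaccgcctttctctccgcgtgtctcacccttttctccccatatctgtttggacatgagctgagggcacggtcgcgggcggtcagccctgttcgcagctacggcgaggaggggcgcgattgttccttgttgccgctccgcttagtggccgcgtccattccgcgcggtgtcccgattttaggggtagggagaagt
MVD: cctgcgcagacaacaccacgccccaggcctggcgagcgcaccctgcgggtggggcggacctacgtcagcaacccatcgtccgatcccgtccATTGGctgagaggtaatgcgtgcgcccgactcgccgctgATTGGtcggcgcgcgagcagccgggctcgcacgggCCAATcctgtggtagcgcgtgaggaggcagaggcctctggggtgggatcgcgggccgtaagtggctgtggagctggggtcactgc
FDPS: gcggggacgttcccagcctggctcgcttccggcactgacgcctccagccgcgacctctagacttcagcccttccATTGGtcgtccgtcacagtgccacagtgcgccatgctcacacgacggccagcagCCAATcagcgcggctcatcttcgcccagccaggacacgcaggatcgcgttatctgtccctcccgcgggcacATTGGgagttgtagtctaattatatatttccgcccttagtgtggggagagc

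RefSeq promoter windows were found for 7 of the 8 enzymes, and 4 sets of letters were searched on both strands in the 250 bases before each listed start. CCAAT stood at 2 or more places before at least 1 start of 5 enzymes, HMGCS1, MVK, MVD, IDI1 and FDPS. These are the enzymes that fell and had a window. Only PMVK and GGPS1 had a window and did not pass, and a link between the letters and the falls was not tested. It stood 5 times before the start of MVK, 3 times before those of MVD and FDPS, 2 times before the first start of HMGCS1 and 0 times before its second. IDI1 had 0, 3 and 2 matches at its 3 starts, and at the second start 2 of the 3 share bases. GGPS1 had 0, 1 and 0 at its 3 starts, and PMVK had 0. Of all 35116 windows of this length, 32.0% held CCAAT and 9.53% held it at 2 or more places. The sterol element letters TCACNCCAC were found before no start of these enzymes (0.883% of all windows), and TCACNCCA, which is contained in them, before MVK alone (3.20% of all windows). GGGCGG, the letters bound by Sp1, stood before at least 1 start of each of the 7 enzymes, as it did in 42.6% of all windows. A match describes letters and is no evidence of binding, and some genes have more windows than others, which raises their chance of a match. Only these fixed letters were searched, so forms of a site that differ from them were not counted. A missing match is therefore no evidence that a site is absent.

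**Figure D1:**
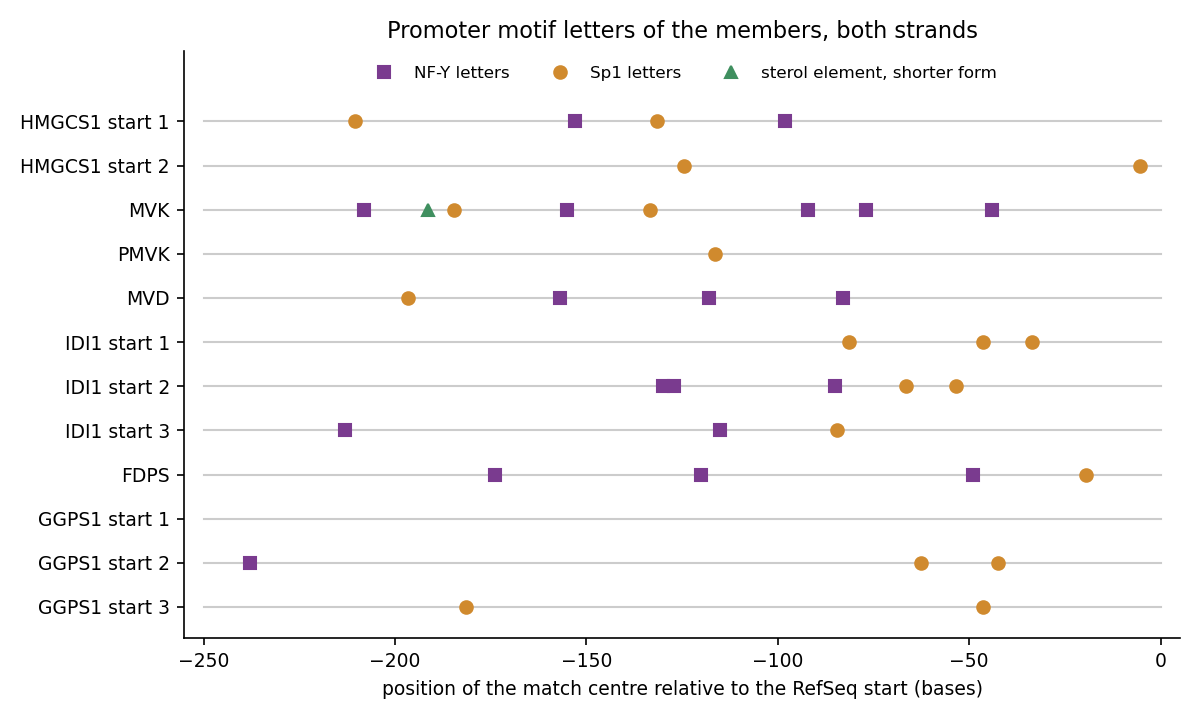
Positions of the NF-Y, Sp1 and sterol element letters (squares, circles and triangle) before each RefSeq start of 7 enzymes, with the distance from the start in bases on the horizontal axis and 1 line per start. MVK carries 5 NF-Y matches and the triangle, while PMVK carries 0 NF-Y matches.

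ACAT2, the cytosolic thiolase that joins 2 acetyl-CoA molecules at the entry to the pathway, had log2 values of 10.12, 10.13 and 10.10 with ox-LDL and 10.71, 10.62 and 10.52 in vehicle. All 3 ox-LDL arrays lay below the lowest vehicle array, and they differed from each other less than the vehicle arrays did. ACAT2 fell by 0.50 on the log2 scale (SE 0.08, 95% confidence interval -0.68 to -0.32, limma adjusted p = 0.0142).

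HMGCS1, the cytosolic HMG-CoA synthase, had log2 values of 8.36, 8.39 and 8.34 with ox-LDL and 9.82, 9.84 and 9.52 in vehicle. The groups were far apart, and the third vehicle array was the lowest of its group. HMGCS1 fell by 1.37 (SE 0.10, 95% confidence interval -1.61 to -1.12, limma adjusted p = 0.00126), which left 38.8% of the vehicle level. Of the 21448 probe sets, 31 had a more negative difference.

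MVK, the mevalonate kinase, had log2 values of 7.81, 7.84 and 7.54 with ox-LDL and 8.42, 8.21 and 8.19 in vehicle. The groups did not overlap, though the third ox-LDL array was lower than its 2 partners. MVK fell by 0.54 (SE 0.11, 95% confidence interval -0.81 to -0.28, limma adjusted p = 0.0376).

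PMVK, which adds the second phosphate to mevalonate, had log2 values of 8.08, 8.35 and 8.03 with ox-LDL and 7.72, 7.86 and 7.83 in vehicle. Here every ox-LDL array lay above every vehicle array, the only enzyme of the 8 for which this was so. The difference of 0.35 did not pass (SE 0.10, 95% confidence interval 0.11 to 0.60, limma adjusted p = 0.0946). Of all 21448 probe sets tested, 7898 had groups that did not overlap, 3801 of them with ox-LDL lower.

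MVD, the decarboxylase that makes isopentenyl diphosphate, had log2 values of 8.12, 8.28 and 8.02 with ox-LDL and 8.69, 8.81 and 9.16 in vehicle. The groups did not overlap, and the third vehicle array was the highest of its group, opposite to its place for HMGCS1. MVD fell by 0.75 (SE 0.14, 95% confidence interval -1.07 to -0.42, limma adjusted p = 0.0266), the widest interval of the 6 enzymes that fell.

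IDI1, the isomerase that turns isopentenyl diphosphate into dimethylallyl diphosphate, had log2 values of 10.76, 10.72 and 10.90 with ox-LDL and 11.40, 11.48 and 11.20 in vehicle. The ox-LDL arrays were all lower, with the third array of each group nearest to the other group. IDI1 fell by 0.57 (SE 0.10, 95% confidence interval -0.80 to -0.33, limma adjusted p = 0.0214). IDI2, its paralogue, was in both groups no higher than that negative control level.

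FDPS, the farnesyl diphosphate synthase, had log2 values of 10.68, 10.65 and 10.74 with ox-LDL and 11.31, 11.34 and 11.32 in vehicle. Both groups were tight and lay apart. FDPS fell by 0.63 (SE 0.07, 95% confidence interval -0.79 to -0.47, limma adjusted p = 0.00416). The reference gene table holds 10 pseudogenes named after FDPS and 3 named after IDI1, whose transcripts the probe sets may also read, so both values are uncertain in that respect.

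GGPS1, which lengthens farnesyl to geranylgeranyl diphosphate, had log2 values of 8.68, 8.87 and 8.84 with ox-LDL and 9.06, 9.10 and 8.68 in vehicle. The groups overlapped through the third vehicle array. The difference of -0.15 did not pass (SE 0.13, 95% confidence interval -0.45 to 0.16, limma adjusted p = 0.480). With 1 array left out it ranged from -0.07, without the second vehicle array, to -0.28, without the third, and was -0.09 without the first vehicle or the first ox-LDL array; it did not pass in any of these (limma adjusted p = 0.0737 to 0.761).

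**Figure D2:**
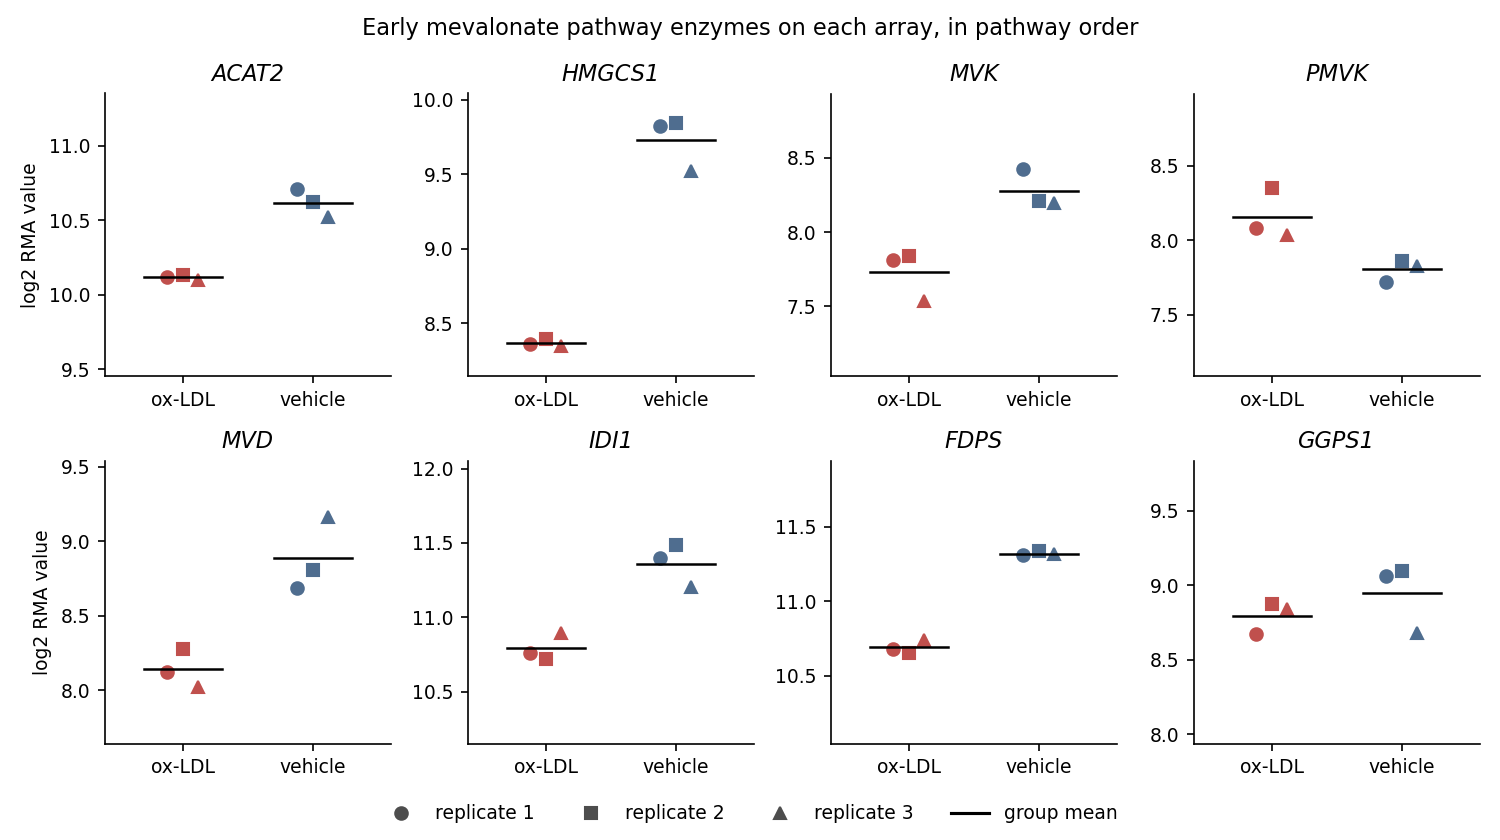
Log2 RMA values of the 8 enzymes on each array, ox-LDL at left and vehicle at right in each panel, with 1 point per array, shapes for replicates and lines for group means; all panels span the same number of log2 units. The groups lie apart for 7 enzymes, with ox-LDL lower for 6 and higher for PMVK, and overlap for GGPS1. They lie apart, in either direction, for 7898 of all 21448 probe sets tested.

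For 6 enzymes every ox-LDL array lay below every vehicle array, as it did for 17.7% of all probe sets tested. HMGCS1 and FDPS passed whichever array was left out, with adjusted p-values up to 0.0160 for HMGCS1 and up to 0.0391 for FDPS. Without the third vehicle array the same 6 enzymes passed as lower, where 2670 of all 21448 probe sets passed, against 1451 with it. Without the first vehicle array 4 passed as lower (ACAT2, HMGCS1, MVD and FDPS), where 806 of all probe sets passed. Without the second vehicle array 2 passed as lower, where 718 of all probe sets passed. Without any 1 ox-LDL array 2 passed as lower, where 305 to 335 of all probe sets passed. The log2 difference of each of these 6 enzymes stayed within 1.23 times its value with all arrays, and kept its sign, under all alternatives run.

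**Figure D3:**
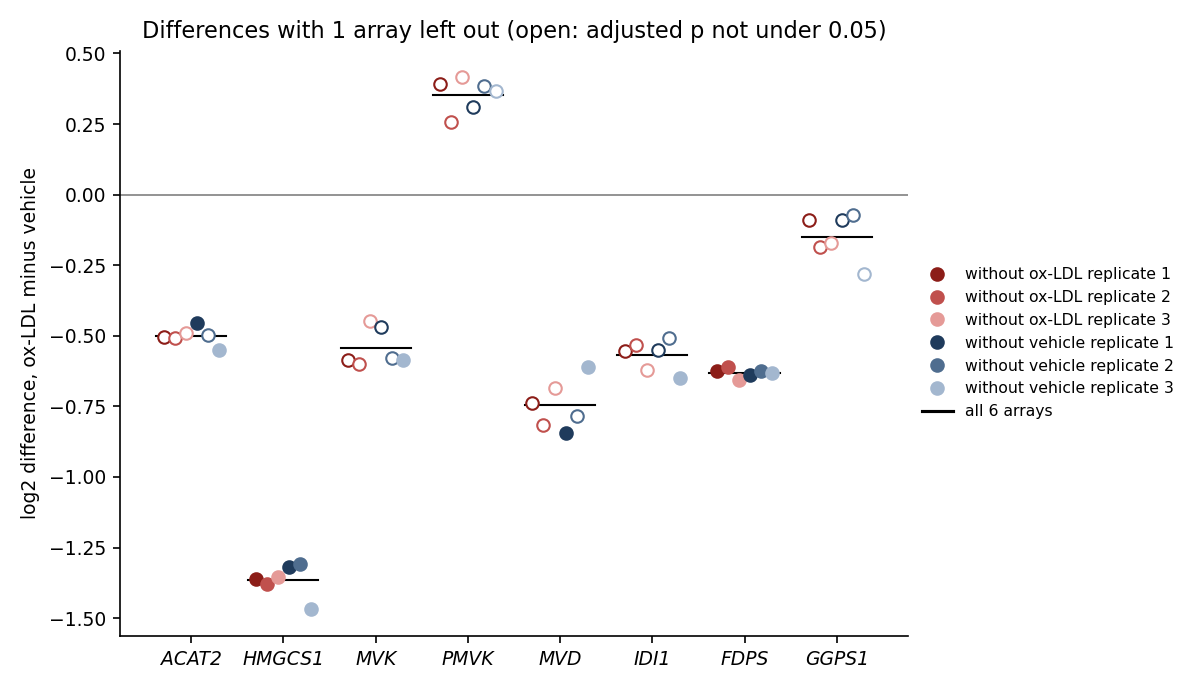
Log2 difference (ox-LDL minus vehicle) of each enzyme with 1 array left out in turn, 1 point per array left out, filled where the adjusted p was under 0.05; black lines give the value with all 6 arrays. HMGCS1 and FDPS stay filled throughout, and GGPS1 is most negative, at -0.28, without the third vehicle array.

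Whether neighbours in the pathway changed by unequal amounts was examined on the log2 difference between 2 enzymes within an array, which a shift of the whole array does not touch. Among 7 neighbouring pairs of measured enzymes, 5 had groups that did not overlap, as did 35.3% of all pairs of probe sets tested. The log2 difference of PMVK minus that of MVK was 0.90, and that of MVD minus that of PMVK was -1.10. MVD minus PMVK was 0.03, -0.08 and -0.02 on the ox-LDL arrays, against 0.97, 0.95 and 1.33 on the vehicle arrays. The corresponding values were -0.86 for HMGCS1 minus ACAT2, 0.82 for MVK minus HMGCS1 and 0.48 for GGPS1 minus FDPS. For IDI1 relative to MVD (0.18) and FDPS relative to IDI1 (-0.06) the groups overlapped. The 5 pairs each had an exact permutation p of 0.1, two-sided, the smallest that 3 against 3 arrays allow (0.14 adjusted over the 7 pairs), and the other pairs one of 0.7, so no pair could pass.

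The enzymes after squalene, which build the sterol ring and modify it, fell in 9 of 11 measured members: SQLE, the squalene epoxidase, by 0.97 on the log2 scale, DHCR7, which makes cholesterol from 7-dehydrocholesterol, by 0.94, MSMO1 by 0.86, HSD17B7 by 0.86, the lanosterol demethylase CYP51A1 by 0.73, the lanosterol synthase LSS by 0.63, TM7SF2 by 0.58, the lathosterol desaturase SC5D by 0.55 and NSDHL by 0.40. Of all probe sets tested, 3.29% passed with a fall. The standard errors of these 9 enzymes ran from 0.07 to 0.12 and their adjusted p-values from 0.00119 to 0.0411 (limma). The 2 that did not pass, named after their values were seen, were EBP (log2 difference -0.29) and LBR, a sterol reductase and nuclear envelope protein (0.35). LBR passed upward in 4 of the alternatives, among them without the third vehicle array (limma adjusted p = 0.0464), and EBP passed downward in 3 (limma adjusted p = 0.0278 to 0.0477). NSDHL lost its call with equal array medians (limma adjusted p = 0.0678). The median was -0.63, beside -0.56 for the early enzymes, and the 2 medians were not tested against each other. Without any 1 ox-LDL array 4 of the 9 passed, where 305 to 335 of all 21448 probe sets passed. Without the first vehicle array 6 passed and without the second 5, where 806 and 718 of all probe sets passed. Without the third vehicle array 9 were lower and 1 higher, where 1220 of all probe sets passed lower and 1450 higher.

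**Figure D4:**
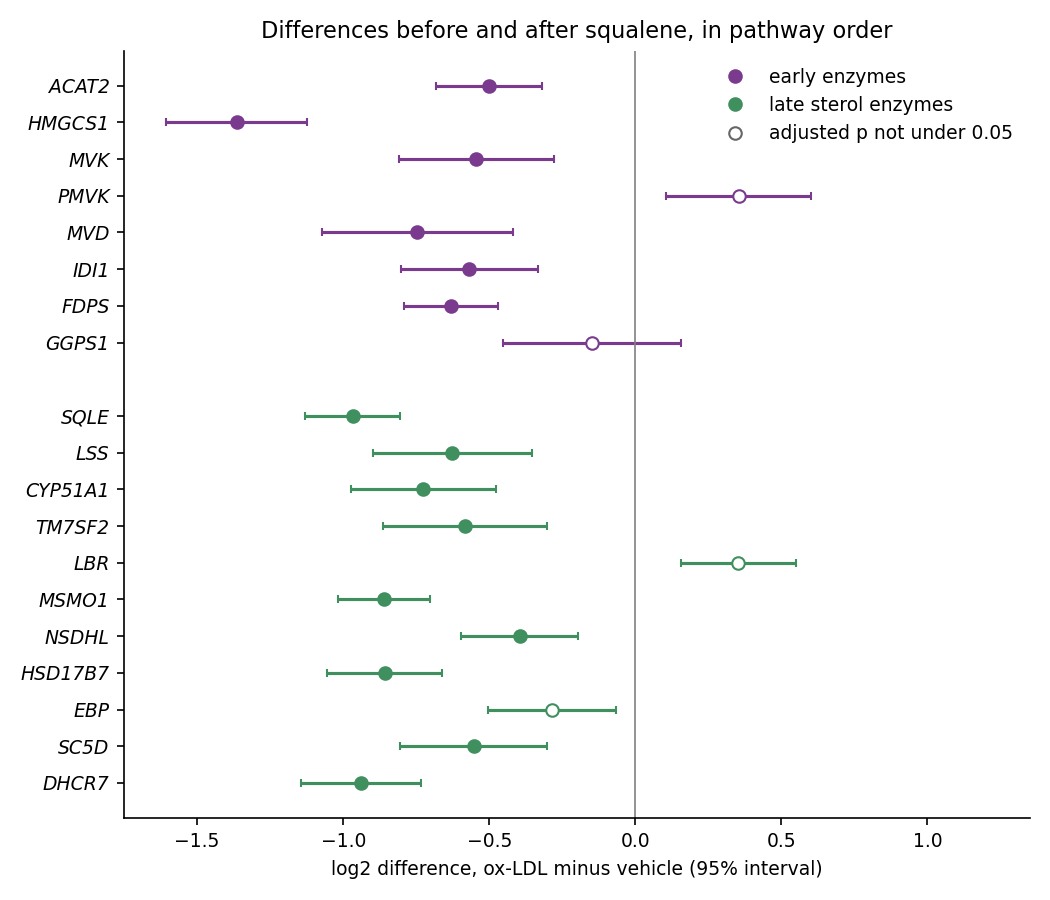
Log2 differences (ox-LDL minus vehicle) with 95% confidence intervals for the 8 early enzymes (purple) and 11 late sterol enzymes (green), from top to bottom in pathway order, open where the adjusted p was not under 0.05. HMGCS1 has the most negative value, and PMVK and LBR have positive ones.

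Other enzymes use farnesyl and geranylgeranyl diphosphate for protein prenylation, ubiquinone and dolichol. Of 11 measured, PDSS1, a subunit of the enzyme that makes the ubiquinone side chain, rose by 0.71 (SE 0.09, limma adjusted p = 0.00865) and 10 did not pass, a count near the shares over all probe sets (3.48% higher and 3.29% lower). PDSS1 had log2 values of 9.03, 9.05 and 8.95 with ox-LDL and 8.38, 8.38 and 8.13 in vehicle. Every ox-LDL array lay above the vehicle arrays, but the call was lost without the first or the second ox-LDL array (limma adjusted p = 0.0555 and 0.0582). RABGGTA, a subunit of the transferase that prenylates Rab proteins, had a difference of -0.22 (limma adjusted p = 0.108), and it passed lower in 3 of the alternatives (limma adjusted p = 0.0300 to 0.0332). The list's median was 0.16. Without the third vehicle array 2 members passed, both higher, where 1450 of all 21448 probe sets passed higher.

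Among 6 measured regulators of SREBP, INSIG1, which retains SREBP in the endoplasmic reticulum and is itself an SREBP target, fell by 0.98 (SE 0.07, limma adjusted p = 0.00126) and 5 did not pass. Over all probe sets 3.29% passed lower and 3.48% higher, and a count of 1 among 6 says little about the list. INSIG1 had log2 values of 8.52, 8.57 and 8.52 with ox-LDL and 9.46, 9.49 and 9.60 in vehicle, and it passed whichever array was left out. SREBF2, which encodes SREBP2, had log2 values of 9.81, 9.90 and 9.75 with ox-LDL and 10.07, 10.09 and 10.31 in vehicle. Its groups did not overlap, but the difference of -0.34 did not pass (SE 0.09, limma adjusted p = 0.0804). SREBF2 passed lower with a filter on dim probe sets, an intensity trend or array weights (limma adjusted p = 0.0210 to 0.0293). SCAP, named after its values were seen, had a difference of 0.24 (limma adjusted p = 0.0863). It passed higher in the same alternatives (limma adjusted p = 0.0206 to 0.0287) and with an unmoderated t statistic.

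In the list of acetyl-CoA supply, ketone body enzymes and paralogues, 8 members were measured. ACAT1, the mitochondrial thiolase and relative of ACAT2, rose by 0.47 (SE 0.09, limma adjusted p = 0.0324) and 7 did not pass. Over all probe sets 3.48% passed higher and 3.29% lower, and a count of 1 among 8 says little about the list. ACAT1 had log2 values of 9.77, 9.91 and 9.78 with ox-LDL and 9.49, 9.33 and 9.22 in vehicle, a direction opposite to that of the cytosolic ACAT2 on the same arrays. The call was lost without the second vehicle array (limma adjusted p = 0.0900) or any 1 ox-LDL array (0.113 to 0.146). OXCT1, which activates ketone bodies, had a difference of 0.31 (limma adjusted p = 0.0664). ACSS2, the cytosolic acetyl-CoA synthetase, was named after its values were seen: it had log2 values of 7.33, 7.39 and 7.34 with ox-LDL and 8.18, 8.29 and 7.19 in vehicle. The third vehicle array alone brought its groups to overlap, and the difference was -0.53 with it (limma adjusted p = 0.263), -0.88 without it (limma adjusted p = 0.00231) and -0.33 without the second vehicle array (limma adjusted p = 0.460). Without the third vehicle array, 1 member of the list passed lower (ACSS2) and 1 higher (ACAT1). In that setting 1220 of all 21448 probe sets passed lower and 1450 higher.

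**Figure D5:**
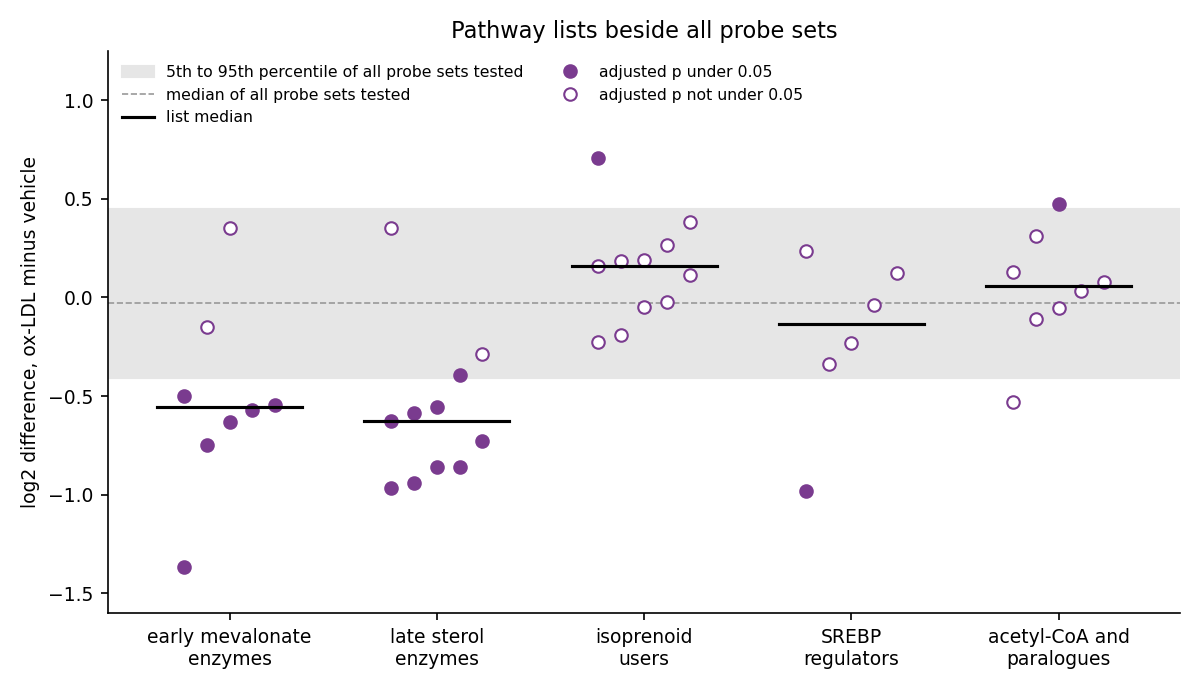
Log2 differences (ox-LDL minus vehicle) of the members of each pathway list, filled where the adjusted p was under 0.05, with list medians as black lines and the 5th to 95th percentile of all probe sets tested, -0.41 to 0.45, as a grey band. The early and late enzymes have medians of -0.56 and -0.63, against 0.16 for the isoprenoid users, -0.14 for the SREBP regulators and 0.06 for the acetyl-CoA list.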

How the data were processed

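Total RNA of 3 ox-LDL and 3 vehicle samples was labelled with biotin from 500 ng each, per the labels' protocols. The authors deposited log2 values made with RMA, per the submitters' processing notes; for its version, genome build and annotation the sources used here give nothing. RMA equalises arrays, so a change in total RNA per cell cannot be seen, and it understates changes of dim genes. That the values are on a log2 scale follows from their range, 2.28 to 14.1. For arrays no depth applies, and their number limits the precision.

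Of 24350 probe sets, 2902 controls were left out, and 17709 of the remaining 21448 had 1 symbol in the platform annotation, 0 several and 3739 none. All arrays entered 1 limma 3.58.1 fit (lmFit and eBayes, R 4.3.3; figures with matplotlib 3.10.9), tested on simulated data first. Errors are SD over arrays or limma's standard error. Enzymes and lists were chosen with earlier results of these data known; the text names all 9 enzymes, the passing late sterol enzymes, in other lists the passing members and the 2 with the smallest p, EHMT2, and the 3 genes nearest to HMGCS1. Alternatives were 3 normalizations, a filter on dim probe sets, 3 variance settings, the replicate number as a block, 2 thresholds and leaving out each array. Promoter windows come from RefSeq on GRCh38.p14.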

Additional observations from a re-analysis of the deposited data

How the results depend on the processing

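With 1 array left out, the number that passed ranged from 2 to 6 of the 8 early enzymes, from 4 to 10 late sterol enzymes, from 0 to 2 isoprenoid users, was 1 SREBP regulator each time, ranged from 0 to 2 in the acetyl-CoA list and from 305 to 2670 over all probe sets. Equal array medians, a second quantile normalization and cyclic loess left 6 early enzymes each, as did an intensity trend and array weights; keeping probe sets above the median level gave 7, with PMVK as the added one (limma adjusted p = 0.0395). An unmoderated t statistic passed 3 early, 4 late, 2 SREBP regulator and 0 acetyl-CoA genes, an adjusted p under 0.01 passed 2, 4, 1 and 0, and the study's selection (p at or below 0.001 and 1.5-fold) 2, 6, 1 and 0, where the acetyl-CoA list had 2 members at an unadjusted limma p under 0.05. Above the median level, with the trend and with array weights, 3 isoprenoid users and 3 SREBP regulators passed each time, and 2, 2 and 3 of the acetyl-CoA list. Over all probe sets the main count of 1451 was 2608, 2649 and 3962 in these. It was 1414 to 1470 with the 3 normalizations and 1087 with an unmoderated t statistic. At an adjusted p under 0.01 it was 382, and by the study's selection 496. Signs turned for 6 list genes that did not pass: with 1 array left out, FNTA ranged from -0.082 to 0.33, NUS1 from -0.13 to 0.035 (also 0.029 without vehicle replicate 2), ZMPSTE24 from -0.11 to 0.0099, SREBF1 from -0.11 to 0.079 and INSIG2 from -0.17 to 0.30. Array weights gave -0.035 for FNTA, 0.071 for SREBF1 and -0.15 for INSIG2, equal medians 0.0088 for NUS1, and quantile and cyclic loess normalization -0.0034 and -0.030 for SLC25A1. The causes were not tested.

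With the replicate number as a block, 2 early enzymes (HMGCS1 and FDPS), 5 late enzymes, 0 of the acetyl-CoA list and 550 of all probe sets passed. In the labels, same-numbered arrays share only a number. Their deviations from the group means correlated at -0.0061, 0.030 and 0.020 across probe sets, and not every array correlated best with its own number. These values cannot tell whether same-numbered arrays were handled together, so the counts with the block are given beside the main ones.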

Other observations

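By the root mean square distance of their 6 log2 values, each relative to its vehicle mean, the 3 named genes outside the lists that lay nearest to HMGCS1 were IRAK2, a kinase of interleukin 1 receptor signalling (distance 0.049), AMPD3, an AMP deaminase (0.080), and MXD1, a partner of MAX (0.087). Their log2 differences were -1.32, -1.41 and -1.36, beside -1.37 for HMGCS1. The genes were chosen by the closeness of these same values, so the likeness in difference and in array pattern follows from the choice. IRAK2 had log2 values of 7.57, 7.59 and 7.58 with ox-LDL and 8.94, 8.99 and 8.75 in vehicle, with the third vehicle array lowest, as for HMGCS1.

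In the reference gene table, some of the early enzyme genes overlap other genes, 3 of which had a probe set here; they were looked up after the values of the enzymes were seen. MMAB, a cobalamin adenosyltransferase gene that overlaps MVK, fell by 0.48 (SE 0.07, limma adjusted p = 0.0116). It had log2 values of 9.45, 9.37 and 9.44 with ox-LDL and 9.88, 9.95 and 9.88 in vehicle, so its groups lay apart. WDR37, which overlaps IDI1, and ARID4B, which overlaps GGPS1, had differences of 0.05 each (limma adjusted p = 0.739 and 0.818). The strand that the probes read is not given in the sources used here, and its part in these values was not tested.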
